A study of Mus musculus with 12 samples.

Results

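The 46 genes described here were listed as enzymes and membrane transport proteins of the peroxisome, without the peroxins that build the organelle. They were taken by name from a table of 46882 gene names with read counts of whole mouse kidney, and 46 of 46 were found and had enough counts to be tested among the 16910 genes tested. RNA was sequenced from kidneys of C57BL/6 mice aged 6 to 8 weeks, 6 of them wild type (WT) and 6 with the genotype A1cf -/- (A1cf KO). A1cf encodes an RNA-binding protein that works with the cytidine deaminase APOBEC1. The sources used here do not say how the A1cf allele was made or in which cells it is missing. Libraries are named by the number of the animal, which is 573, 590, 601, 776, 777 and 778 in WT and 574, 584, 588, 591, 602 and 780 in A1cf KO.

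Peroxisomes are small organelles with a single membrane that hold oxidases that pass electrons from their substrates to oxygen, which forms hydrogen peroxide that catalase then breaks down. They shorten very long and branched fatty acids that mitochondria do not take, remove the methyl-branched phytanic acid by alpha-oxidation, oxidise D-amino acids and hydroxy acids, and carry out the first steps of ether lipid synthesis. In the kidney they are plentiful in proximal tubule cells, which burn fatty acids. Matrix enzymes are made in the cytosol and are brought in by the receptor Pex5.

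The DNA in front of the genes is shown for 4 members because they differ in what follows. Acot8 had the smallest p of the members, Ehhadh had a library that stood apart, Cat had the smallest spread between libraries, and Hao2 varied most after Abcd2. The 200 bases before the RefSeq start site (GRCm38.p6) are written 5′ to 3′ on the strand of the gene, which is the minus strand for all 4 genes. They lie at chr2:164804882-164805081, chr16:21787835-21788034, chr2:103485154-103485353 and chr3:98893231-98893430 in the same order. Capitals mark the GC box, GGGCGG on either strand, which is the core of the site read by Sp1-type factors.
Acot8: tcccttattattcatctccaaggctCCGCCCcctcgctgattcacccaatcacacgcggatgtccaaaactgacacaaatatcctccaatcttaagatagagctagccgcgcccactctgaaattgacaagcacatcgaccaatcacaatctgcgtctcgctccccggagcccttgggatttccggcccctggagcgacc
Ehhadh: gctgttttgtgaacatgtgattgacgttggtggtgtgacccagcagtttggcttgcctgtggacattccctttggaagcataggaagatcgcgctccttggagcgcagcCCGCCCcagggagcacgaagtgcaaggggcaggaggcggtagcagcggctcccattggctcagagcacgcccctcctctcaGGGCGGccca
Cat: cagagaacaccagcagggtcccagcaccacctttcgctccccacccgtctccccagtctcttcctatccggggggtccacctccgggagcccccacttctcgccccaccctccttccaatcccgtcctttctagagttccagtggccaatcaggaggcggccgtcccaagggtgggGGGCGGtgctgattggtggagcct
Hao2: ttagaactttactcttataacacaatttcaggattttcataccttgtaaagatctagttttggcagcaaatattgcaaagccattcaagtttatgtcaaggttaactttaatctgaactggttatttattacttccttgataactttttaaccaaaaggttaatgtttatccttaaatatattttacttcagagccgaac

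The Hao2 sequence holds no GC box and 29.0% G and C, against 54.0% in Acot8, 61.5% in Ehhadh and 65.5% in Cat. The motifs were counted over the 250 bases before each RefSeq start, for 38 of the 46 members with 47 start windows. GGGCGG on either strand was in 63.8% of the members' windows (26 members) and in 32.7% of all 32851 windows. The full set of windows was not limited to genes tested in kidney, as the members were, so the 2 sets are unlike. The members' windows were also richer in G and C, with a median of 58.8% against 52.4% over all windows. TATAAA on either strand was in 2.13% of the members' windows, all of it in front of Acot4, and in 12.4% of all windows. AGGTCA, the half-site of nuclear receptors such as PPAR alpha, was in 14.9% of the members' windows and in 14.02% of all windows, on either strand. The members with it were Acot4, Cat, Dao, Ddo, Gstk1, Scp2 and Slc27a2. The direct repeat of that half-site with 1 base between, on either strand, was in 0 of the members' windows and in 0.0335% of all. A match of these letters is a description of the window and not a measured binding site.

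Libraries held 26671705 to 52899139 counts, the members took 2.04% to 2.25% of the counts of a library, and A1cf was at 54.5 ± 7.39 CPM in WT against 4.11 ± 1.07 CPM in A1cf KO (SD, n = 6 each). Its libraries ranged from 45.2 to 65.7 CPM in WT and from 2.95 to 6.11 CPM in A1cf KO, and the ranges did not overlap. CPM values are counts scaled to a common library size with TMM factors. The submitters call the libraries of a genotype biological replicates. Across 66 pairs of libraries the chi-square per degree of freedom was at least 17.3, so that every pair differed by more than sampling noise. The kidney labels were checked against cell markers. Proximal tubule markers were abundant (Lrp2 at 2224 and Slc34a1 at 4240 CPM in WT), while 8 of 8 thick ascending limb markers had fold changes below 0 and 0 of 8 passed the threshold, with a summed level of 4972 to 7261 CPM in WT against 3774 to 4784 CPM in A1cf KO. All 6 tested markers each of the distal convoluted tubule, principal cells and intercalated cells were also below 0 (median log2 fold changes -0.21, -0.33 and -0.25), and 0 passed. At an unadjusted edgeR p under 0.05 there were 8 of 8 thick ascending limb markers, beside 10.4% of all genes tested. In these other lists there were 2, 1 and 3 of 6. Proximal tubule markers went both ways, with 5 of 8 above 0 for the early and 5 of 9 for the straight segments. Their median log2 fold changes were 0.12 and 0.15, and 0 passed. Of them, 1 of 8 and 2 of 9 had an unadjusted edgeR p under 0.05. In whole tissue, fewer cells of a type and less RNA per cell cannot be told apart.

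None of the 46 peroxisomal genes passed the test for a difference between genotypes. In the edgeR quasi-likelihood test with Benjamini-Hochberg adjustment over all genes tested, 0 of 46 members had an adjusted p under 0.05, where 0.0473% of all genes tested did (0.0118% higher and 0.0355% lower). At an unadjusted p under 0.05 this fit gave 4 members, 2 higher (Ephx2 and Agps) and 2 lower (Acot8 and Abcd4) in A1cf KO. Of all genes, 10.4% reached that level, 5.07% higher and 5.28% lower. Counts that take the animal numbers into account differed and are given below. In DESeq2, 1 of 46 members passed, the thioesterase gene Acot8, beside 1.01% of all genes. The genotypes did not overlap in 1 member, again Acot8, beside 0.84% of all genes. The smallest adjusted p was 0.138 for Acot8 and the largest 0.997 for Acox3 (edgeR).

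The fold changes of the members lay close to 0. Of the log2 fold changes (A1cf KO relative to WT), 28 were above 0 and 18 below, where 49.2% of all genes tested were above 0. The balance turned when the animal number series (573 to 602 against 776 to 780) was handled, with 22 above and 24 below with the series as a covariate and 17 above and 29 below within animals 573 to 602. Without WT 573 or without WT 776 it was 23 and 23. Their median was 0.013, against -0.003 over all genes tested. In 36 of 46 members the log2 fold change was smaller than 0.1 in size, as it was in 48.9% of all genes. For 34 members the normal 95% interval of the log2 fold change lay wholly between -0.3 and 0.3, and the share over all genes is not given. Every member but Abcd2 had at least 205 counts in each library. The genes tested were not matched to the members by level, so the 48.9% is not a like background. The summed level of the members was 21054 ± 1030 CPM in WT against 21704 ± 994 CPM in A1cf KO (SD, n = 6 each), and the ranges of 19788 to 22665 and 20634 to 23344 CPM overlapped.

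**Figure D1:**
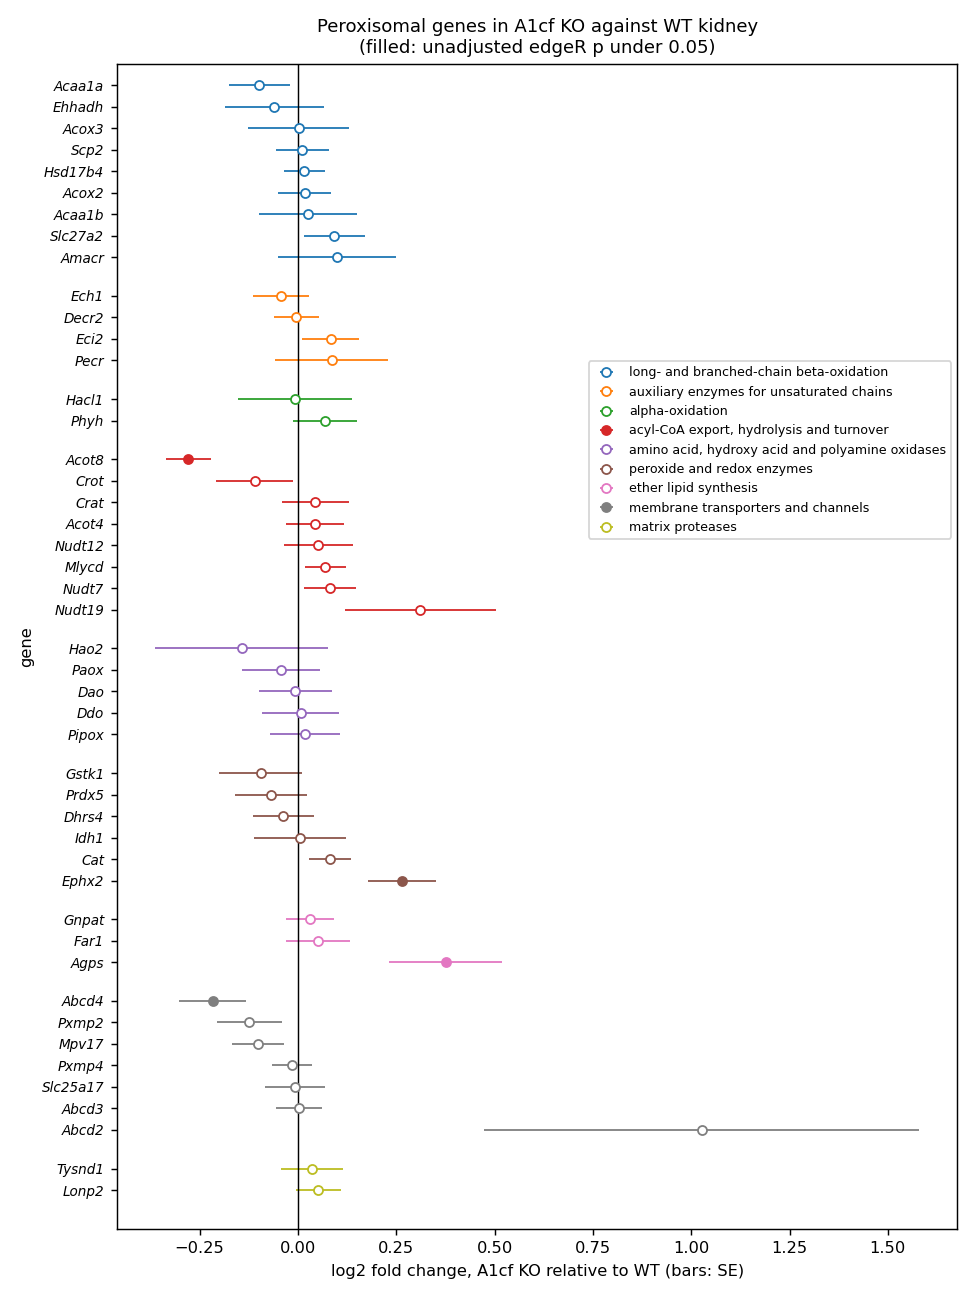
Log2 fold change of each of the 46 genes in A1cf KO relative to WT (x axis, points with SE bars), grouped and coloured by role (y axis, genes), with filled points where the unadjusted edgeR p was under 0.05. The 4 filled points are Acot8, Ephx2, Agps and Abcd4, and Abcd2 stands far right at 1.03 with the widest bar.

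Levels between members are compared per kilobase of counted exon, which understates genes with many alternative exons. Slc27a2, the fatty acid transporter and very-long-chain acyl-CoA synthetase, was highest at 1259 CPM per kilobase in WT, and it held 22.5% of the members' summed CPM in WT. Ehhadh followed at 671, Prdx5 at 659, Cat at 483, Acaa1b at 416, Ech1 at 385, Ephx2 at 360 and Phyh at 356 CPM per kilobase in WT. These genes cover fatty acid activation and beta-oxidation, peroxide removal, epoxide hydrolysis and alpha-oxidation. The neighbours Ehhadh and Prdx5, Acaa1b and Ech1, and Ephx2 and Phyh lay within their spread of each other in WT, since the gap between their means was smaller than the SD of either gene. The lowest member was Abcd2 at 0.312, and Paox, the polyamine oxidase, was next at 4.71 CPM per kilobase in WT. The median over members was 59.7 in WT and 59.3 CPM per kilobase in A1cf KO.

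**Figure D2:**
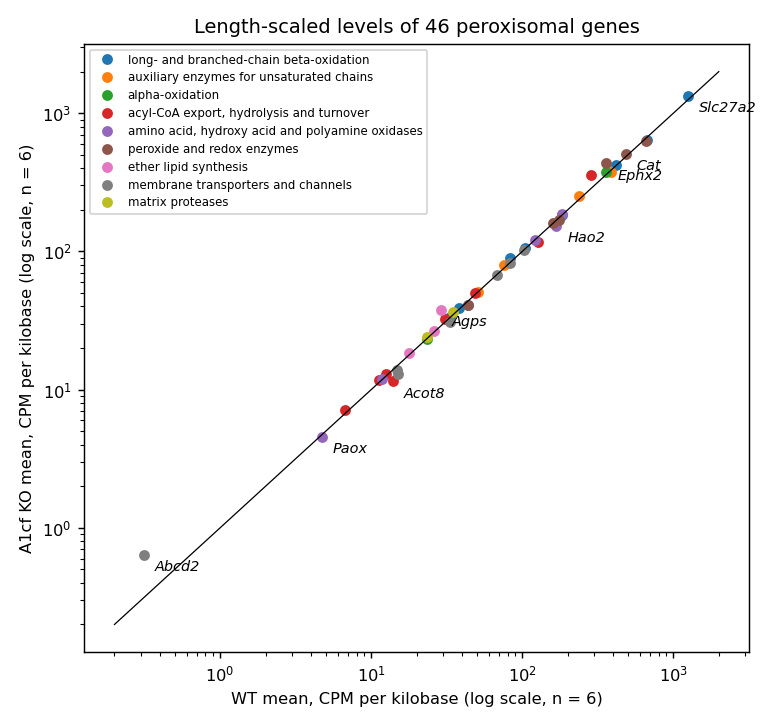
Mean level of the 46 genes in A1cf KO (y axis) against WT (x axis), both in CPM per kilobase of exon on log scales (n = 6 each), coloured by role, with the line of equal levels. The genes spread from 0.312 (Abcd2) to 1259 (Slc27a2) in WT and lie on or near the line, with Abcd2 the farthest above it.

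The enzymes that activate and shorten long and branched chains were at nearly the same level in both genotypes. The 9 genes had log2 fold changes from -0.10 to 0.10 with a median of 0.02, 7 of them above 0, and 0 passed the threshold. Slc27a2 was at 4427, 4746 and 4971 CPM (lowest, median, highest) in WT and at 4494, 4938 and 5912 CPM in A1cf KO. The genotypes overlapped, and the highest library was A1cf KO 780. Its log2 fold change was 0.09 (SE 0.078, edgeR adjusted p = 0.711).

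Acox2 and Acox3, the oxidases that start the oxidation of branched chains, were at 142 ± 10.8 and 384 ± 40.6 CPM in WT and at 144 ± 12.1 and 384 ± 79.4 CPM in A1cf KO (n = 6 each, SD). Hsd17b4, the multifunctional enzyme for branched chains and bile acid precursors, was at 355 ± 11.6 CPM in WT against 359 ± 21.4 CPM in A1cf KO. Scp2, which encodes a thiolase and a sterol carrier, was at 634 ± 56.5 and 639 ± 36.7 CPM. All of these differences were smaller than the SD of either genotype. Amacr, the racemase that turns branched acyl-CoA esters to the form the oxidases accept, was at 215 ± 56.5 CPM in WT against 230 ± 29.5 CPM in A1cf KO.

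Acaa1a and Acaa1b are near-identical thiolase genes, and reads that fit both could be placed in either, so their values are uncertain. Acaa1a was at 194 ± 20.9 CPM in WT against 181 ± 16.2 CPM in A1cf KO (log2 fold change -0.10, SE 0.078, edgeR adjusted p = 0.692). Acaa1b was at 815 ± 163 and 830 ± 98.8 CPM, with a log2 fold change of 0.03 (SE 0.12). Per kilobase in WT, Acaa1b stood at 416 and Acaa1a at 44.0 CPM.

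Ehhadh, the bifunctional enzyme for straight chains, is known as a target of the lipid sensor PPAR alpha. It was at 1723, 1916 and 2701 CPM (lowest, median, highest) in WT and at 1506, 1875 and 2465 CPM in A1cf KO. The genotypes overlapped over nearly their whole range, and the high libraries were WT 776 and A1cf KO 584. The log2 fold change was -0.06 (SE 0.13, edgeR adjusted p = 0.899).

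Some other genes known to respond to fatty acids were high in the same libraries as Ehhadh. They were picked after their values were seen. Cyp4a14, a fatty acid hydroxylase, reached 3186 CPM in WT 776, with 2833 CPM in A1cf KO 584, and between 711 and 1929 CPM in the other 10 libraries. Cyp4a10, a hydroxylase of the same family, was at 3512 and 3623 CPM in these libraries and at 2875 CPM in A1cf KO 780. Pdk4, which limits glucose oxidation, was at 805 CPM in WT 776, 698 CPM in A1cf KO 780 and 366 CPM in A1cf KO 584. The high libraries of these genes belonged to both genotypes, and none of the 3 passed the threshold between genotypes (edgeR adjusted p = 0.973 for Cyp4a10, 0.943 for Cyp4a14 and 0.981 for Pdk4). Not all genes of fatty acid oxidation were high there. Slc27a2 was at 4535 CPM in WT 776, and its 4494 CPM in A1cf KO 584 was its lowest A1cf KO value. Acaa1b was at 740 CPM in WT 776, below its WT median of 820 CPM. How many genes go with Ehhadh was not counted.

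The 4 auxiliary enzymes that prepare unsaturated chains for beta-oxidation had log2 fold changes from -0.04 to 0.09, and 0 passed the threshold. Ech1, the dienoyl-CoA isomerase, was at 789, 869 and 982 CPM (lowest, median, highest) in WT and at 778, 861 and 939 CPM in A1cf KO. The ranges were almost the same (log2 fold change -0.04, SE 0.072, edgeR adjusted p = 0.874). Eci2, an enoyl-CoA isomerase, was at 198 ± 15.1 and 210 ± 20.2 CPM, and Decr2, the dienoyl-CoA reductase, at 116 ± 7.31 and 116 ± 7.44 CPM (SD, n = 6 each). Pecr, the trans-enoyl-CoA reductase, was at 361 ± 76.8 and 383 ± 70.2 CPM.

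Alpha-oxidation removes 1 carbon from phytanic acid so that beta-oxidation can go on, and its 2 genes did not pass the threshold. Phyh, the hydroxylase of the first step, was at 631, 669 and 719 CPM (lowest, median, highest) in WT and at 561, 704 and 825 CPM in A1cf KO. The A1cf KO libraries spread over a wider range that held all WT libraries (log2 fold change 0.07, SE 0.082, edgeR adjusted p = 0.808). Hacl1, the lyase that cuts off the carbon, was at 121 ± 27.4 and 120 ± 17.6 CPM.

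The group that hydrolyses, exports and turns over acyl-CoA held the member with the smallest p. Acot8 encodes the thioesterase that frees medium- to long-chain fatty acids and bile acids from coenzyme A. It lies on chromosome 2 from 164792768 to 164804882 on the minus strand of mm10, with 6 counted exon segments. It was at 24.3, 27.9 and 30.0 CPM (lowest, median, highest) in WT and at 22.1, 22.9 and 23.8 CPM in A1cf KO. Every A1cf KO library was below every WT library, and the gap between the lowest WT library, 590, and the highest A1cf KO library, 584, was small. The means were 27.7 ± 1.99 and 22.9 ± 0.619 CPM (SD, n = 6 each), which puts A1cf KO at 82.4% of WT.

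The log2 fold change of Acot8 was -0.28 (SE 0.057, edgeR p = 0.00022, adjusted p = 0.138, exact two-sided permutation p = 0.0022). The permutation p is the smallest possible for 6 against 6, and by its edgeR p the gene ranked 26 among all genes tested. In DESeq2 the adjusted p was 0.0035, and in edgeR without WT 590 it was 0.046. Over 20 alternative analyses the log2 fold change stayed between -0.31 and -0.25, and the adjusted p between 0.0035 and 0.536. The exons of Acot8 share 243 bases, 12.2% of its counted length, with Snx21 on the opposite strand. Snx21, a sorting nexin gene, was at 22.7 ± 2.26 CPM in WT against 18.8 ± 1.67 CPM in A1cf KO, with a log2 fold change of -0.28 (SE 0.079, edgeR adjusted p = 0.278). Reads were counted without strand, so reads in the shared bases cannot be assigned to 1 of the genes, and the part of the overlap in the result was not tested.

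The other 7 genes of this group did not pass the threshold. Nudt19, a hydrolase of coenzyme A that is abundant in kidney, was at 476, 767 and 1008 CPM (lowest, median, highest) in WT and at 663, 893 and 1446 CPM in A1cf KO. The ranges overlapped, the lowest library was WT 776 and the highest A1cf KO 602. The log2 fold change was 0.31 (SE 0.19, edgeR adjusted p = 0.599), and 35.0% of its exon bases are shared with B230322F03Rik on the opposite strand, which was at 0.493 CPM in WT. Within the animals 573 to 602 the log2 fold change of Nudt19 was 0.06.

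Nudt7, another coenzyme A hydrolase, was at 37.6 ± 2.44 CPM in WT against 39.8 ± 3.49 CPM in A1cf KO (SD, n = 6 each, log2 fold change 0.08, edgeR adjusted p = 0.700). Nudt12, which acts on NADH and related nucleotides, was at 49.6 ± 6.94 and 51.5 ± 4.38 CPM. Mlycd, which degrades malonyl-CoA, was at 91.6 ± 4.18 and 96.1 ± 5.69 CPM (log2 fold change 0.07, edgeR adjusted p = 0.669). For each of these genes the difference was smaller than the SD in at least 1 genotype. Crat and Crot, the carnitine acyltransferases that pass shortened chains on to mitochondria, were at 262 ± 32.8 and 693 ± 76.4 CPM in WT and at 270 ± 25.3 and 642 ± 94.4 CPM in A1cf KO. Acot4, a succinyl-CoA thioesterase with close relatives in the genome, was at 31.5 ± 1.82 and 32.5 ± 3.58 CPM.

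Among the oxidases of amino acids, hydroxy acids and polyamines, 0 of 5 passed the threshold and the log2 fold changes ran from -0.14 to 0.02. Pipox, the pipecolic acid and sarcosine oxidase, was the highest of them per kilobase, at 381, 470 and 495 CPM (lowest, median, highest) in WT and 367, 457 and 535 CPM in A1cf KO. The A1cf KO range held the WT range (log2 fold change 0.02, SE 0.089, edgeR adjusted p = 0.960). Dao and Ddo, the oxidases of neutral and acidic D-amino acids, were at 360 ± 56.1 and 35.5 ± 3.95 CPM in WT and at 358 ± 27.1 and 35.7 ± 5.21 CPM in A1cf KO (n = 6 each, SD). Paox was at 8.31 ± 0.841 and 8.06 ± 0.988 CPM.

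Hao2 encodes a hydroxy acid oxidase and had the largest spread between libraries after Abcd2, with an SD of 0.46 on the log2 scale within genotypes. It was at 205, 332 and 531 CPM (lowest, median, highest) in WT and at 205, 328 and 356 CPM in A1cf KO. The 3 WT libraries 573, 590 and 601 were above all A1cf KO libraries, and the 3 WT libraries 776, 777 and 778 were below all A1cf KO libraries but 780. Over all libraries the log2 fold change was -0.14 (SE 0.22, edgeR adjusted p = 0.861), and leaving out single libraries gave values from -0.26 to 0.02.

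Hao2 was 1 of 10 members whose WT libraries fell into separate ranges by animal number. The numbers form a low series (573 to 602, with 3 WT and 5 A1cf KO animals) and a high series (776 to 780, with 3 WT and 1 A1cf KO animals), and the labels do not call them batches. Of the 10 members, 9 were lower in WT 776 to 778 and 1, Hsd17b4, was higher. Over all genes tested, 18.1% had separate ranges, 8.61% lower and 9.53% higher in 776 to 778. Of all 46 members, 34 had a lower mean in WT 776 to 778, where 50.8% of all genes did, and the median difference over members was -0.09 on the log2 scale.

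Hao2 was at a mean of 460 CPM in WT 573 to 601 and 229.5 CPM in WT 776 to 778, a log2 difference of -1.0. Amacr was at 263 and 167 CPM (log2 difference -0.66) and Pecr at 421 and 301 CPM (log2 difference -0.48). Gstk1, a glutathione transferase, was at 72.2 and 56.6 CPM. The other 5 that were lower were Scp2, Ddo, the reductase Dhrs4, the ether lipid enzyme Gnpat and the membrane protein gene Mpv17, with log2 differences from -0.23 to -0.12. With 3 against 3 libraries an exact permutation test could not go below a p of 0.10, so none was run. The summed level of 8 markers of the early proximal tubule also lay in separate ranges, with 9668 to 12337 CPM in WT 573 to 601 and 7971 to 8716 CPM in WT 776 to 778. Of these 8 markers, Slc34a1, Lrp2 and Gatm lay in separate ranges themselves, and the other 5 overlapped. Of 9 markers of the straight segment of the proximal tubule, 0 were lower and 2 were higher without overlap in 776 to 778. Their summed level overlapped, with 33276 to 40410 CPM in WT 573 to 601 and 28556 to 37016 CPM in WT 776 to 778. The summed level of 6 endothelial markers lay in separate ranges the other way, with 128 to 177 CPM in WT 573 to 601 and 217 to 274 CPM in WT 776 to 778, and 5 of the 6 were higher without overlap in 776 to 778. The part of these markers in the differences was not tested.

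**Figure D3:**
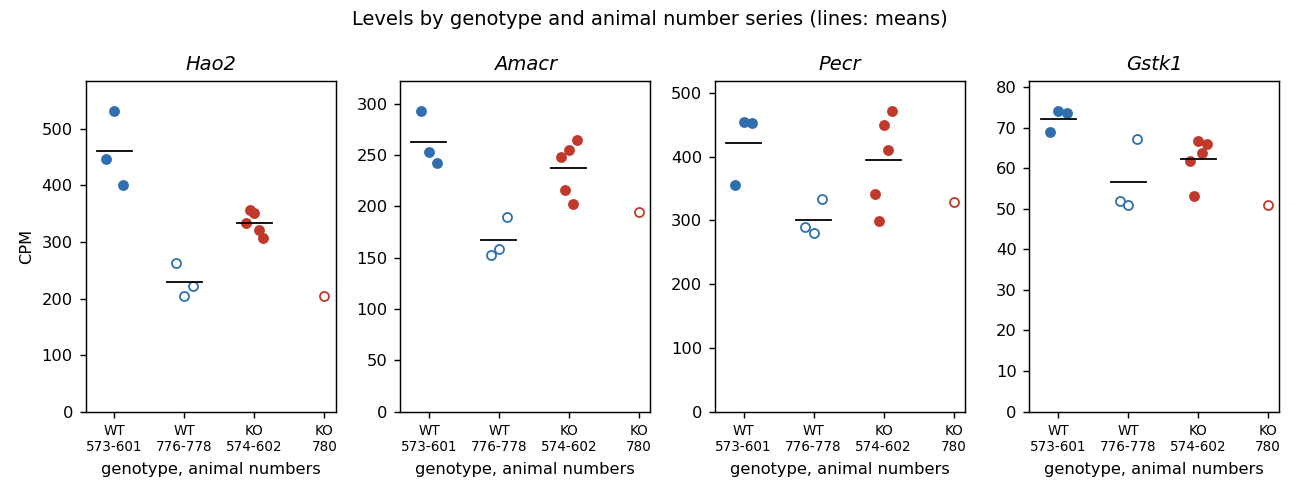
CPM of Hao2, Amacr, Pecr and Gstk1 (y axes from 0) in each library, by genotype and animal number (x axis), with filled points for the low and open points for the high number series and lines at the means. In each panel the 3 open WT points lie below the 3 filled WT points, most widely in Hao2 (means of 460 and 229.5 CPM).

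Since the genotypes are unevenly spread over the number series, the members were also compared with the series as a covariate and within 573 to 602. With the covariate, the log2 fold change of Hao2 was -0.38 (edgeR adjusted p = 0.111), and within 573 to 602 it was -0.46 (adjusted p = 0.298). Within 573 to 602 the genotypes did not overlap in 6 members, which were Acot8, Hao2, Gstk1, Ephx2, Pxmp2 and Mpv17, beside 5.67% of all genes. Hao2 was at a mean of 460 CPM in the 3 WT and 334 CPM in the 5 A1cf KO libraries of that series. In the high series, A1cf KO 780 was at 205 CPM and the 3 WT libraries were at 205 to 262 CPM. No member passed the threshold with the covariate or within 573 to 602, where 0.142% of all genes passed with the covariate. The sign of Amacr and Pecr turned, from 0.10 and 0.09 over all libraries to -0.15 and -0.10 within 573 to 602.

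The enzymes that handle peroxide and redox equivalents included the gene with the steadiest level. They also included 1 of the 4 with an unadjusted p under 0.05 over all libraries. Cat, the catalase that breaks down hydrogen peroxide, was at 1215, 1271 and 1297 CPM (lowest, median, highest) in WT and at 1245, 1343 and 1404 CPM in A1cf KO. The ranges overlapped, and A1cf KO 574, 584, 591 and 780 were above all WT libraries. Its SD of 0.053 on the log2 scale within genotypes was the smallest of the 46, where the median was 0.15. Its log2 fold change was 0.08 (SE 0.054, edgeR adjusted p = 0.630, exact two-sided permutation p = 0.035).

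Ephx2, the epoxide hydrolase that acts on lipid epoxides, lies on chromosome 14 from 66084377 to 66124500 on the minus strand and shares no exon base with another gene name. It was at 708, 733 and 760 CPM (lowest, median, highest) in WT and at 744, 841 and 1116 CPM in A1cf KO. The WT libraries lay close together, 5 of the 6 A1cf KO libraries were above all of them, and A1cf KO 591 lay inside their range. The means were 733 ± 18.4 and 881 ± 135 CPM (SD, n = 6 each). The log2 fold change was 0.27 (SE 0.086, edgeR p = 0.0079, adjusted p = 0.324, exact two-sided permutation p = 0.0043). It was 0.19 at the lowest and 0.31 at the highest when 1 library was left out, and the smallest adjusted p over the alternatives was 0.126, with the series covariate.

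The other 4 genes of this group had log2 fold changes from -0.10 to 0.01. Prdx5, a peroxiredoxin, was at 1236, 1420 and 1582 CPM (lowest, median, highest) in WT and at 1131, 1342 and 1535 CPM in A1cf KO. The genotypes overlapped (log2 fold change -0.07, SE 0.092, edgeR adjusted p = 0.835), and 19.1% of its exon bases are shared with Trmt112 on the opposite strand. Idh1, which makes NADPH in cytosol and peroxisome, was at 442 ± 70.2 and 444 ± 68.7 CPM (SD, n = 6 each). Gstk1 was at 64.4 ± 10.5 and 60.3 ± 6.72 CPM, and Dhrs4 at 242 ± 24.6 and 236 ± 21.6 CPM.

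Ether lipid synthesis starts in the peroxisome with 3 enzymes, and of these Agps had an unadjusted p under 0.05. Agps, which puts the alkyl chain in place, was at 245, 267 and 306 CPM (lowest, median, highest) in WT and at 224, 350.5 and 510 CPM in A1cf KO. The lowest and the highest library were both A1cf KO, 591 and 780, and 5 of 6 A1cf KO libraries were above the highest WT library. The means were 273 ± 25.3 and 354 ± 93.8 CPM, with a log2 fold change of 0.38 (SE 0.14, edgeR p = 0.020, adjusted p = 0.388, exact two-sided permutation p = 0.061). Within 573 to 602 the log2 fold change was 0.19 (edgeR adjusted p = 0.807), and leaving out 1 library at a time gave 0.24 to 0.48. Gnpat, which adds the first acyl chain, was at 92.8 ± 5.45 and 94.7 ± 7.70 CPM, and Far1, which supplies the fatty alcohol, at 143 ± 19.4 and 149 ± 8.33 CPM.

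**Figure D4:**
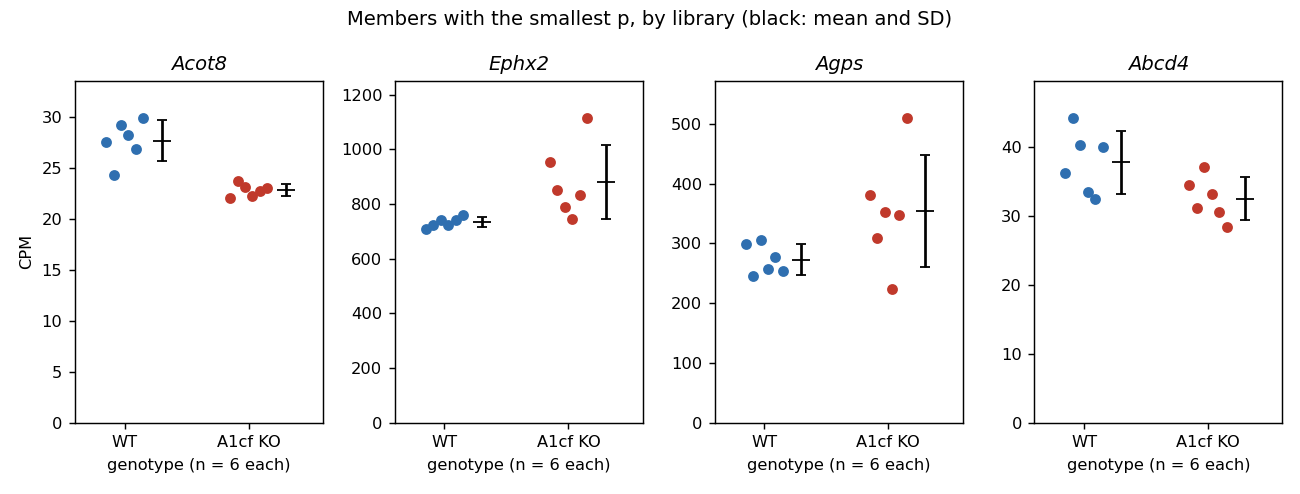
CPM (y axes from 0) of Acot8, Ephx2, Agps and Abcd4 in each WT (blue) and A1cf KO (red) library (x axis, n = 6 each), with the mean and SD in black. Genotypes are apart only in Acot8 among these 4, and A1cf KO 780 is the highest library for Ephx2 (1116 CPM) and Agps (510 CPM).

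Of the 7 genes listed as membrane transporters and channels, 5 had log2 fold changes below 0 and 0 passed the threshold. Abcd4, an ABC half-transporter that acts in the handling of cobalamin at the lysosome, was at 32.5, 38.2 and 44.3 CPM (lowest, median, highest) in WT and at 28.5, 32.2 and 37.2 CPM in A1cf KO. The ranges overlapped, with 3 A1cf KO libraries below the lowest WT library. The log2 fold change was -0.22 (SE 0.085, edgeR p = 0.022, adjusted p = 0.396, exact two-sided permutation p = 0.039), and no exon base is shared with another gene name. Over the alternatives it ranged from -0.28 to -0.17.

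Abcd3, the importer of branched and dicarboxylic acids and the most abundant of these genes per kilobase, was at 646, 662 and 733 CPM (lowest, median, highest) in WT and at 642, 652 and 728 CPM in A1cf KO. The ranges were nearly the same, with a log2 fold change of 0.00 (SE 0.057, edgeR adjusted p = 0.992). Pxmp2, a channel for small solutes, was at 40.2 ± 5.49 and 36.9 ± 1.89 CPM (SD, n = 6 each, log2 fold change -0.12, edgeR adjusted p = 0.632). Mpv17, a membrane protein first described in peroxisomes and also found in mitochondria, was at 47.9 ± 4.58 and 44.6 ± 2.57 CPM (log2 fold change -0.10, edgeR adjusted p = 0.626). The lower WT values of Mpv17 were those of the high number series. Slc25a17, the carrier of nucleotide cofactors, was at 137 ± 9.45 and 137 ± 16.1 CPM, and Pxmp4 at 213 ± 9.07 and 211 ± 11.2 CPM.

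Abcd2, a half-transporter for very long and polyunsaturated acyl-CoA that is known to be abundant in fat tissue, was the lowest member with 18 to 311 counts per library. It was at 0.707, 1.44 and 3.74 CPM (lowest, median, highest) in WT and at 0.375, 2.82 and 8.75 CPM in A1cf KO. Both the lowest library, 588, and the highest, 602, were A1cf KO. The log2 fold change of 1.03 (SE 0.55, edgeR adjusted p = 0.538) was the largest of the members and had the largest error. It ranged from 0.52 to 1.6 over the alternatives.

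The summed level of 6 fat cell markers, among them Adipoq, was lowest in the same library, A1cf KO 588, at 0.793 CPM, and highest in the same library, A1cf KO 602, at 212 CPM. Over WT it ran from 10.1 CPM in 573 to 137 CPM in 777, where Abcd2 was also highest. Other libraries did not keep the same order. A1cf KO 780 had 119 CPM of these markers and 2.71 CPM of Abcd2, against 65.6 and 4.11 CPM in A1cf KO 584. In WT, Abcd2 was lowest in 778 and not in 573. Of the 5 fat cell markers tested, 4 had fold changes above 0 and 0 passed the threshold, with a median log2 fold change of 0.87. The part of fat tissue in the values of Abcd2 was not tested.

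**Figure D5:**
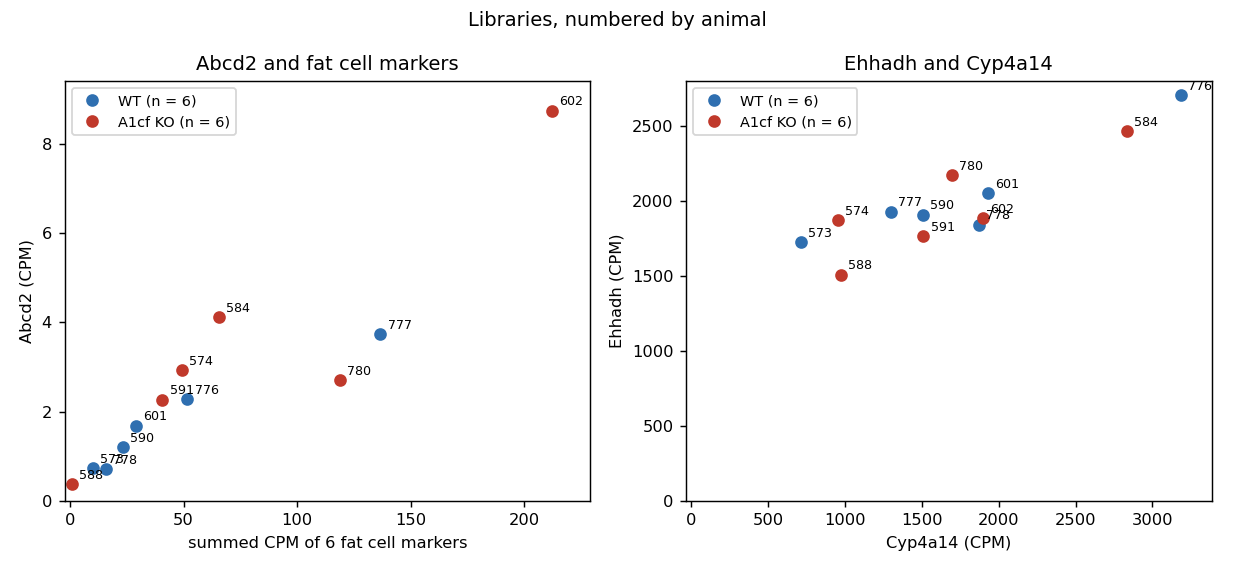
Left, CPM of Abcd2 (y axis) against the summed CPM of 6 fat cell markers (x axis). Right, CPM of Ehhadh (y axis) against Cyp4a14 (x axis). Points are the 6 WT (blue) and 6 A1cf KO (red) libraries with their animal numbers, with A1cf KO 602 at the upper right on the left side (212 and 8.75 CPM) and WT 776 on the right side (3186 and 2701 CPM).

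The 2 matrix proteases did not pass the threshold. Lonp2, the chaperone protease, was at 169, 187 and 209 CPM (lowest, median, highest) in WT and at 179, 195 and 205 CPM in A1cf KO. The WT range held the A1cf KO range (log2 fold change 0.05, SE 0.057, edgeR adjusted p = 0.789). Tysnd1, which cuts imported enzymes such as the thiolases, was at 53.3 ± 5.77 and 54.6 ± 4.88 CPM (SD, n = 6 each).

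Other genes of the organelle were counted from lists for comparison with the members. Of 16 peroxins, 1 passed the threshold and was lower, the import receptor gene Pex5, with a log2 fold change of -0.71. The A1cf KO libraries had 57.9 ± 2.28 CPM of Pex5, against 94.6 ± 5.89 CPM in WT (SD, n = 6 each, edgeR adjusted p = 5.3e-06), while 0 of the 46 genes for enzymes and transporters passed. The median log2 fold change of the peroxins was -0.02.

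Of the 6 genes tested for division and tethering, 0 passed. The smallest p belonged to the adaptor Fis1 at a log2 fold change of -0.14, the tether Acbd5 at 0.16 and its partner Vapb at -0.11 (edgeR adjusted p = 0.475, 0.509 and 0.523). Of 9 lipid-sensing regulators, 0 passed. The coactivator Ppargc1a was at -0.21, the receptor Ppard at 0.13 and the coactivator Ppargc1b at 0.25 on the log2 scale (edgeR adjusted p = 0.426, 0.567 and 0.644), and Ppara was at 65.7 ± 7.36 CPM in WT against 64.9 ± 13.5 CPM in A1cf KO. Of 19 other peroxisomal proteins tested, 1 passed and was lower. Acot6, a thioesterase, had a log2 fold change of -0.32 (edgeR adjusted p = 0.311), and Ide, a protease that is partly peroxisomal, -0.45 (adjusted p = 0.317).

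Of 17 genes of mitochondrial fatty acid oxidation, 0 passed in edgeR, and their median log2 fold change was 0.02. Etfa, the alpha subunit of the electron transfer flavoprotein, was at 357 ± 15.3 CPM in WT against 422 ± 19.5 CPM in A1cf KO (SD, n = 6 each, log2 fold change 0.24, edgeR adjusted p = 0.146). In DESeq2 its adjusted p was 0.00087. The thiolase Acaa2 was at -0.20 and Etfb, the partner subunit, at -0.16 on the log2 scale (edgeR adjusted p = 0.524 and 0.632).

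Every gene has a highest and a lowest library, and these were counted for the members only, without a share over all genes. A1cf KO 780 was the highest library for 10 members and the lowest for 7, and A1cf KO 584 was the lowest for 8. WT 590 and A1cf KO 602 were the highest for 8 members each. Of the 46 members, 18 share exon bases with another gene name and 9 share at least 10% of them, so that part of their reads could not be assigned to 1 gene. Counting was without strand. For Mpv17 and Gnpat, and in part for Hacl1 and Crot, the other gene lies on the same strand, where strand would not separate the reads. After Abcd2, the next lowest count in any library was 205, of Paox. The highest count was 280534, of Slc27a2.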

How the data were processed

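The authors ran featureCounts 1.5.0-p2 on GENCODE M8 exons and summed them by gene name, per the file headers. The deposited values are raw counts. The command sets no strand option, and marked duplicates were kept. The submitters' processing notes name STAR, DESeq2 and mm10 without versions. Here, counts of 12 libraries were tested in R 4.3.3 with edgeR 4.0.16: filterByExpr, TMM, quasi-likelihood F test for genotype, and Benjamini-Hochberg adjustment over all genes tested (threshold 0.05). Log2 CPM use a prior count of 2. Single genes were also compared by exact two-sided permutation over 924 divisions of the libraries. The fits were tested on simulated data. Alternatives were DESeq2 1.42.0, limma-voom (limma 3.58.1), other scalings and filters, the animal number series and leaving out each library.

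The members and lists were chosen with earlier results of these data known. Named genes are A1cf, Pex5, members past the threshold in any alternative or without overlap, the 12 members with the smallest p, the 8 highest per length, the 4 with the largest spread, Acaa1a and Acaa1b, the highest of each role, and per pathway list the passing genes and the 3 with the smallest p. Other members appear with their role. Outside the rule, Snx21, B230322F03Rik and Trmt112 are named for shared exons, Lrp2, Slc34a1, Gatm and Adipoq as markers, Ppara as a regulator, and Cyp4a10, Cyp4a14 and Pdk4, all after their values were seen. Some genes that the rule takes are not reported here. Promoter sequences are from RefSeq (GRCm38.p6). Total counts ranged from 26671705 to 52899139 per library.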

Additional observations from a re-analysis of the deposited data

Results flagged for a closer look

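In 92 groups of 6 libraries (46 members in each genotype), 3 had 1 library far from the others, and chance flags about 1 group in 20. Ehhadh in WT 776 was at 2701 CPM, with the other WT libraries between 1723 and 2051 CPM. Crot in A1cf KO 780 was at 822 CPM, with the other A1cf KO libraries between 574 and 666 CPM. Hao2 in A1cf KO 780 was at 205 CPM, with the others between 306 and 356 CPM. The 3 WT libraries of the same number series as A1cf KO 780 were also low for Hao2. Without WT 776 the genotypes of Ehhadh still overlapped.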

How the results depend on the processing

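The count of members past the threshold was 0 in the fit reported, 1 with DESeq2 and between 0 and 1 when 1 library was left out, with Acot8 the member that passed without WT 590. The count over all genes was 8 in that fit, 162 with DESeq2 (84 higher, 78 lower), 24 with the number series as covariate (11 higher, 13 lower), and 6 to 12 when 1 library was left out. The members whose genotypes do not overlap numbered 1 over all libraries, beside 0.84% of all genes, and 6 within animals 573 to 602, beside 5.67%. They numbered 1 to 3 when 1 library was left out. The share over all genes is not given for those fits, so these counts have no background. Without WT 778 they were Acot8 and Ephx2, and without A1cf KO 591 Acot8, Ephx2 and Agps. The cause was not tested. In all 20 alternatives the median log2 fold change of the members moved by less than 0.094. That bound is the SD within genotypes of the members' median log2 CPM per library. It is larger than the median itself, so it cannot show that the sign holds. Within 573 to 602 the sign turned, with a median of -0.036. No paired analysis was possible because the animal numbers are not shared between genotypes. Depth limits Abcd2, with 18 counts in its lowest library.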
